A study of Homo sapiens with 54 samples.

Results

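Messenger RNA of 10 secreted cytokines and chemokines was followed in the human breast cancer line MDA-MB-231, left untreated or given Compound Kushen Injection (CKI) or mixtures made from it. The genes were IL6, IL11, LIF, IL1A, IL1B, CXCL1, CXCL2, CXCL3, CCL20 and CXCL8, chosen by name as secreted signals, and they are 10 of the 27978 genes in the deposited count table. CKI is a water extract of medicinal roots used in China beside cancer chemotherapy, and the study asked what its single components contribute by leaving some of them out. Strand-specific RNA-seq was performed on 54 libraries in 18 groups, each with 3 libraries that the submitters describe as biological replicates. Whether these came from separate cultures is not stated, so the p-values below measure only the spread between these libraries, which may be technical.

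Batch 1 held 6 groups at 24 h and the same 6 at 48 h. They were untreated cells (UT), CKI at 2 mg/ml, CKI lacking oxymatrine and oxysophocarpine (N-OmtOspc), CKI lacking these and macrozamin (N-MacOmtOspc), oxymatrine with oxysophocarpine alone (OmtOspc), and macrozamin with those same compounds alone (MacOmtOspc). Batch 2 held 6 groups at 48 h, namely untreated cells, CKI, and CKI lacking macrozamin (N-Mac), N-methylcytisine (N-Nme), oxymatrine (N-Omt) or trifolirhizin (N-Tri). All mixtures were given at the equivalent of 2 mg/ml CKI in medium with fetal bovine serum. Oxymatrine, oxysophocarpine and N-methylcytisine are plant alkaloids, macrozamin is a sugar-bound azoxy compound and trifolirhizin a sugar-bound flavonoid. The mixtures were fractionated and put together again, and no mixture holding every component was among the groups, so the removal of a component and the handling cannot be told apart.

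Levels are given in CPM, a gene's reads relative to all reads counted in its library, after TMM scaling over all 54 libraries. Total counts lay between 17673537 and 26138924 per library. The line's own markers VIM, CD44, KRT8, KRT18 and EGFR were expressed in every library, with VIM between 489 and 1570 CPM. Of 5 luminal markers expected low, ESR1 and PGR had at most 8 and 2 counts in any library and CDH1 at most 7.2 CPM. GATA3 and EPCAM, from the same list, were present in every library, at 5.18 to 45.6 and 6.19 to 27.7 CPM. Of 9 leukocyte markers, 6 averaged under 1 CPM, with at most 10 counts of PTPRC and 4 of CD3E. However, CD68 and CD74 were expressed, and CD14 ranged from 0.694 to 28.9 CPM. The summed leukocyte list ranged from 254 to 981 CPM, and its part in the results was not tested. Of 7 fibroblast and endothelial markers, 3 averaged under 1 CPM, while COL1A1 lay between 8.87 and 65.2 CPM. At 24 h, 3 libraries of batch 1, the only ones of that batch whose titles give no number beside the treatment, stood apart from their groups. They were CKI replicate 1, N-MacOmtOspc replicate 2 and OmtOspc replicate 2. Their departures followed the difference between the batches over 1106 genes with slopes between 0.557 and 0.624, against -0.384 to 0.0859 in the other 33 libraries of batch 1. N-OmtOspc replicate 3 at 24 h and N-MacOmtOspc replicate 2 at 48 h also stood apart for several of the 10 genes, and the values they moved most are given below with and without them.

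The 10 proteins fall into groups by the receptor they use. IL6, IL11 and LIF signal through receptors that share the subunit IL6ST and drive the kinases of the JAK family and the transcription factor STAT3. IL1A and IL1B bind IL1R1 and activate the transcription factor NF-kappaB, which in turn induces many cytokine genes, the IL-1 genes among them. CXCL1, CXCL2, CXCL3 and CXCL8 attract neutrophils through CXCR2, and CCL20 attracts cells that carry CCR6. Breast cancer cells of this kind are known to secrete IL6 and CXCL8 without stimulation. Such messenger RNAs are short-lived, since proteins such as ZFP36 bind AU-rich stretches in their 3′ untranslated regions and promote their decay.

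The promoters are shown because the genes moved together in some comparisons and apart in others. Each is the 150 bases before the annotated start in RefSeq (GRCh38.p14), written 5′ to 3′ on the gene's strand, with matches to the NF-kappaB consensus, to its shorter core GGNNTTTCC or to the AP-1 motif TGANTCA in capitals. Motifs were searched on both strands, the core was chosen after the sequences had been read, and consensus and core overlap. Entries were found for 9 of the 10 genes, LIF being the exception.
IL6, chr7:22727050-22727199, plus strand: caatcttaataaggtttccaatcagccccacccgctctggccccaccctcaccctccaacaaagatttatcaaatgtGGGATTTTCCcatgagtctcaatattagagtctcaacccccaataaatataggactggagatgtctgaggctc
CXCL8, chr4:73740419-73740568, plus strand: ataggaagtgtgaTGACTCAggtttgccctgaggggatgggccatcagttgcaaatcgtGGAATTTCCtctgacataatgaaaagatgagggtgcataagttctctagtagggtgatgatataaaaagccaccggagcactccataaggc
CXCL1, chr4:73869243-73869392, plus strand: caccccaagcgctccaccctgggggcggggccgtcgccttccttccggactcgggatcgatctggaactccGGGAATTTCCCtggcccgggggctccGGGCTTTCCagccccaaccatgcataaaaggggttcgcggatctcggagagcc
CXCL2, chr4:74099196-74099345, minus strand: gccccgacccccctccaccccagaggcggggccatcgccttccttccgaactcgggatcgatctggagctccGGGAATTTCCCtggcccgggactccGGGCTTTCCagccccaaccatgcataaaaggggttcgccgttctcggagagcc
CXCL3, chr4:74038690-74038839, minus strand: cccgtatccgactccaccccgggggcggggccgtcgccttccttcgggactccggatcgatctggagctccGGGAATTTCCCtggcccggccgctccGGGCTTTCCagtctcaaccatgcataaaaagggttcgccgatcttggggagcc
CCL20, chr2:227813692-227813841, plus strand: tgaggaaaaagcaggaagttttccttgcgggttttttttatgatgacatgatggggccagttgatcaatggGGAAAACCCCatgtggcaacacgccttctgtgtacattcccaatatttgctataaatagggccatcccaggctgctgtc
IL1A, chr2:112784494-112784643, minus strand: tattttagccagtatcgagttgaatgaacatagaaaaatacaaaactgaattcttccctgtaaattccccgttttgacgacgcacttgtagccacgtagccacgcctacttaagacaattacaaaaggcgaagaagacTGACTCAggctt
IL1B, chr2:112836780-112836929, minus strand: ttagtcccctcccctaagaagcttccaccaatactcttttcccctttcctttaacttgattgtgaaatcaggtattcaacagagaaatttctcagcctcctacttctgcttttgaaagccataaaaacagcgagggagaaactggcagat
IL11, chr19:55370464-55370613, minus strand: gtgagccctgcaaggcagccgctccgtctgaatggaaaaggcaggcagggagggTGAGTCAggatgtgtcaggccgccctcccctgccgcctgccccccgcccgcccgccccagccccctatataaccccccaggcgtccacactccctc

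The chemokines CXCL1, CXCL2 and CXCL3 each carried the same run GGGAATTTCCC and, nearer the start, the run GGGCTTTCC. The consensus began 79, 78 and 79 bases before the start in these genes, 73 bases before it in IL6 and, on the opposite strand, 79 bases before it in CCL20. CXCL8 held the core only, 91 to 83 bases before the start, with an AP-1 motif at 137 to 131. IL11 and IL1A held an AP-1 motif and neither NF-kappaB form, and IL1B held no match in its window. Over 250 bases, the consensus was found in 5 of the 9 promoters against 9.57% of 27305 RefSeq promoters, and the AP-1 motif in 3 against 6.6%. The core was found in 6 against 5.48%, but having been chosen from these sequences it cannot show an excess over other promoters. CXCL1, CXCL2 and CXCL3, with the same runs, each count among the matches to consensus and core. A match describes the letters and does not show binding.

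The AU-rich stretches differed between the genes as well. All 10 transcripts held the pentamer ATTTA in the 3′ untranslated region (GENCODE v29, GRCh38), from 3 copies in CCL20 to 10 in CXCL2. The nonamer TTATTTATT was found in 7 of the 10, against 7.52% of 18904 coding genes, whose regions were not matched for length. The 30-base windows that follow are shown for 6 of the genes, with the pentamers in capitals and positions counted from the stop codon. These genes were not picked by pentamer count. The window of IL6 holds 2 pentamers, while those of LIF and IL1A, not shown, hold 3 each. CXCL3 and CCL20, also not shown, hold 2 and 1.
CXCL2, bases 142 to 171: ttctATTTATTTATTTATTTATTTAtttgt
CXCL8, bases 647 to 676: cctATTTAttATTTAtgtATTTATTTAagc
CXCL1, bases 138 to 167: agtcttctATTTATTTATTTAttcattagt
IL11, bases 36 to 65: cagatcttATTTATTTATTTAtttcagtac
IL1B, bases 338 to 367: gcttccctATTTATTTATTTAtttgtttgt
IL6, bases 132 to 161: atttttaATTTAttaatATTTAaatatgtg
The transcripts of CXCL1, CXCL2 and CXCL3 are related, and 0.293%, 2.27% and 2.3% of their 75-base windows occur in another of the trio, so reads from these windows could be shared or dropped in the counting.

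Levels with an error are means ± SD over 3 libraries. A gene was called higher or lower at an adjusted p under 0.05 by edgeR's quasi-likelihood test, corrected over all genes tested by the Benjamini-Hochberg method, and log2 fold changes are given with their standard error (SE). Each treated group was set against untreated cells of its own time and batch, and all comparisons within a time and batch share those untreated libraries. In such bulk samples, fewer cells that express a gene and less RNA per cell cannot be told apart.

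**Figure D1:**
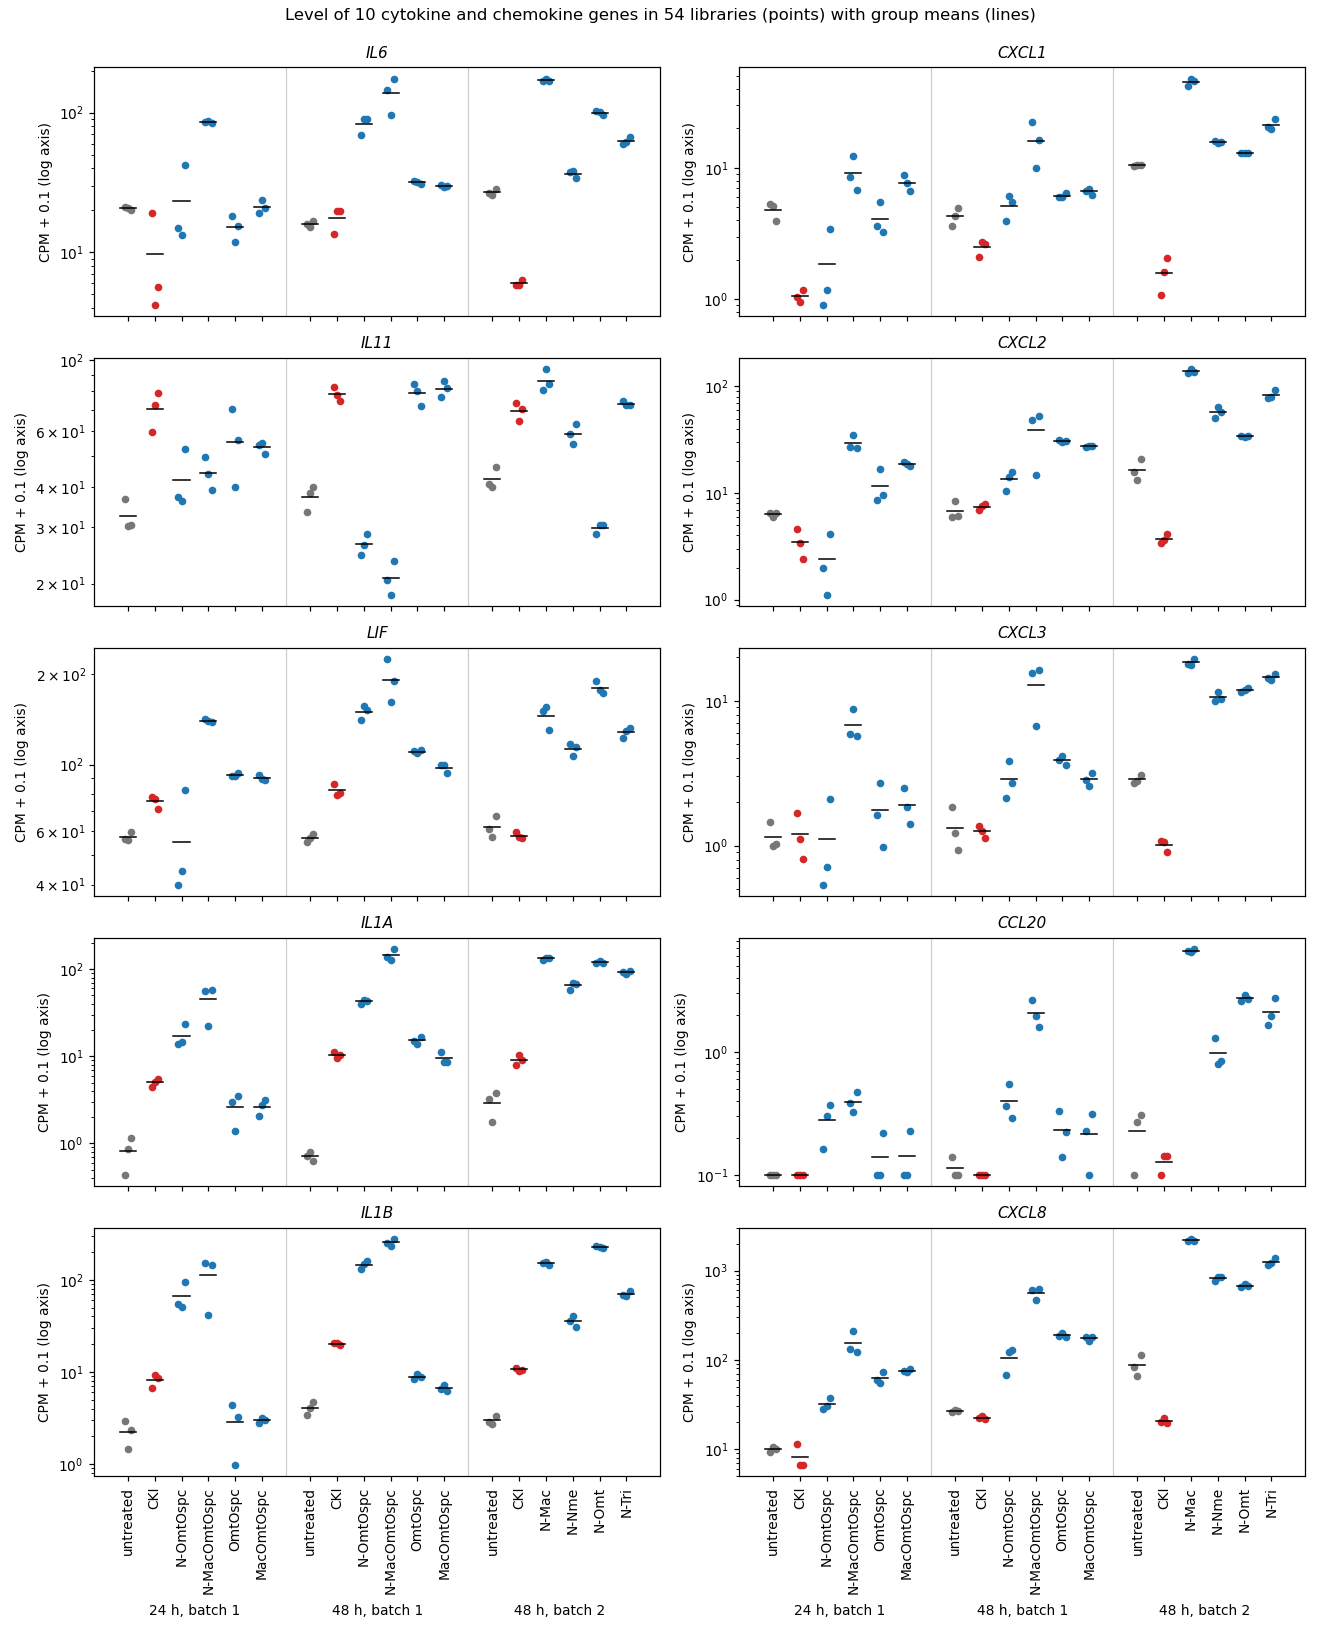
Level of each of the 10 genes in all 54 libraries, as CPM + 0.1 on a log axis, by group, with a point for each library and a line at the group mean (grey, untreated; red, CKI; blue, mixtures). In batch 2, the 3 N-Mac libraries of CXCL8 lie between 2144 and 2262 CPM and the 3 CKI libraries between 19.5 and 22.1 CPM.

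Whole CKI raised IL1A, IL1B and IL11 in both batches and at both times, and lowered CXCL1 in all 3 comparisons. IL6, CXCL2, CXCL3 and CXCL8 were lower with CKI in batch 2, where all 3 CKI libraries lay below all 3 untreated ones for each gene. At 24 h, 3 of the 9 members tested were called higher, against 15.3% of 15191 genes, and 1 lower, against 14.8%. CCL20 had too few counts for a test at 24 h. At 48 h in batch 1, 4 of 10 were called higher and 1 lower, with 27% of all genes called in each direction. At 48 h in batch 2, 3 of 10 were called higher, against 32.3% of all genes, and 5 lower, against 34.2%. The median log2 fold change over the 9 members other than CCL20 was 0.088 at 24 h, 0.16 at 48 h in batch 1 and -1.59 in batch 2, beside 0.020, 0.0080 and -0.0073 over all genes tested.

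IL1A, a cytokine that also acts while bound to the membrane, had the largest rise with CKI in batch 1. In batch 1 at 48 h its level was 0.609, 0.698 and 0.529 CPM in untreated cells and 11.2, 9.4 and 10.3 CPM with CKI, so that the groups were far apart. The log2 fold change was 4.07 ± 0.203 (edgeR adjusted p = 4.19e-13), after 2.73 ± 0.459 at 24 h (edgeR adjusted p = 0.000343). Batch 2 started from a higher untreated level, with 3.14, 1.66 and 3.7 CPM, and reached 7.92, 10.2 and 8.98 CPM. The rise there was 3.19-fold (log2 1.68 ± 0.149, edgeR adjusted p = 1.95e-11).

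IL1B, the secreted IL-1 form, rose in all 3 comparisons. Untreated cells held 2.86, 1.37 and 2.21 CPM at 24 h, 3.33, 3.91 and 4.59 at 48 h in batch 1, and 2.78, 2.63 and 3.24 in batch 2. With CKI the values were 6.57, 9.17 and 8.55, then 20.4, 20.5 and 19.4, and in batch 2 11, 10.1 and 10.5 CPM. No CKI library overlapped an untreated one. The rises were 3.82-fold (edgeR adjusted p = 0.00816), 5.12-fold (1.85e-13) and 3.65-fold (4.66e-14), in the same order.

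Of the IL-6 family, IL11, which acts on stromal and bone cells, rose with CKI in all 3 comparisons, from 32.5 ± 3.62 to 70.2 ± 9.85 CPM at 24 h, from 37.2 ± 3.43 to 78.2 ± 3.8 CPM at 48 h in batch 1 and from 42.3 ± 3.38 to 69.3 ± 4.54 CPM in batch 2. The factors were 2.17, 2.11 and 1.64, with edgeR adjusted p of 0.000304, 9.3e-10 and 1.81e-11. LIF, a regulator of stem and stromal cells, was called higher only at 48 h in batch 1 (1.44-fold, edgeR adjusted p = 2.44e-05). Its log2 fold change was 0.39 ± 0.179 at 24 h (edgeR adjusted p = 0.108) and -0.092 ± 0.0646 in batch 2 (edgeR adjusted p = 0.21). Without N-OmtOspc replicate 3, which is in neither group but in the same fit, LIF passed the test at 24 h (0.39, edgeR adjusted p = 0.00124).

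IL6 itself differed between libraries and batches. At 24 h the untreated libraries held 20.9, 20.5 and 20.1 CPM and the CKI libraries 19.2, 4.12 and 5.57 CPM, so CKI replicate 1, which stood apart from its group, lay near the untreated level. The log2 fold change was -1.08 ± 0.453 (edgeR adjusted p = 0.0816), and without that library it was -2.09 (edgeR adjusted p = 0.00116). At 48 h in batch 1 untreated cells had 15.8, 15 and 16.8 CPM and CKI-treated cells 13.4, 19.8 and 19.6 CPM, and the groups overlapped (log2 0.16 ± 0.172, edgeR adjusted p = 0.458). In batch 2 untreated cells had 26.5, 25.7 and 28.4 CPM and CKI-treated cells 5.77, 5.72 and 6.24 CPM. This was a 4.53-fold fall (log2 -2.18 ± 0.0793, edgeR adjusted p = 6.07e-21).

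Among the chemokines, CXCL1 fell with CKI from 4.72 ± 0.734 to 0.959 ± 0.117 CPM at 24 h, 4.91-fold (edgeR adjusted p = 0.000494). At 48 h it fell from 4.21 ± 0.681 to 2.39 ± 0.346 CPM in batch 1, 1.75-fold (edgeR adjusted p = 0.0102), and from 10.4 ± 0.11 to 1.49 ± 0.502 CPM in batch 2, 6.81-fold (edgeR adjusted p = 2.07e-17). The call in batch 1 at 48 h was lost without untreated replicate 3 (log2 -0.68, edgeR adjusted p = 0.0531). CXCL8, which in batch 2 had 82.8, 66.4 and 112 CPM in untreated cells, had 19.8, 22.1 and 19.5 CPM with CKI, a 4.23-fold fall (edgeR adjusted p = 8.53e-17). In batch 1 its log2 fold change was -0.28 ± 0.227 at 24 h (edgeR adjusted p = 0.365) and -0.23 ± 0.161 at 48 h (edgeR adjusted p = 0.239). CXCL8 at 24 h again had its highest CKI value in replicate 1, with 11.2 CPM beside 6.54 and 6.6 CPM, and passed the test without the 3 libraries that stood apart (log2 -0.60, edgeR adjusted p = 0.00614). CXCL2 and CXCL3 fell 4.53-fold and 3.01-fold in batch 2 (edgeR adjusted p = 1.75e-14 and 2.18e-09). At 24 h CXCL2 had a log2 fold change of -0.88 ± 0.339 (edgeR adjusted p = 0.0588), and -1.15 without CKI replicate 1 (edgeR adjusted p = 0.0402).

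**Figure D2:**
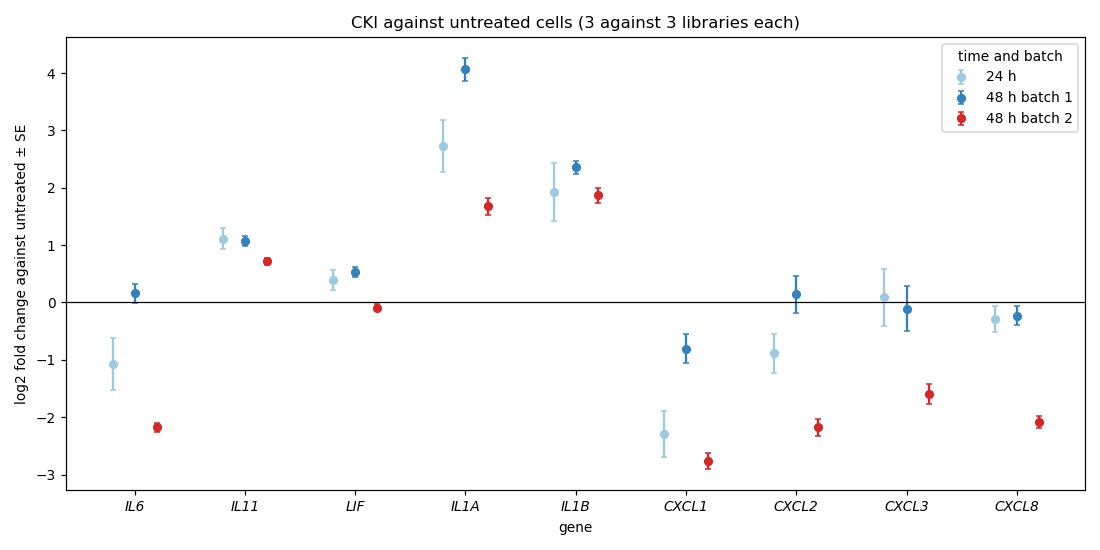
Log2 fold change of 9 genes in CKI against untreated cells, with bars of 1 SE, at 24 h and at 48 h in batches 1 and 2 (3 against 3 libraries each). IL1A, IL1B and IL11 lie above 0 in all 3 comparisons, and IL6 lies at 0.16 in batch 1 at 48 h and at -2.18 in batch 2.

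The batches therefore gave different CKI effects at 48 h. By a test of the difference itself over 36 libraries, the CKI effect was lower in batch 2 than in batch 1 for 8 of the 10 members, against 8.9% of 15872 genes called in either direction. The differences on the log2 scale were -2.33 ± 0.208 for IL6, -2.38 ± 0.312 for IL1A, -2.31 ± 0.396 for CXCL2, -1.96 ± 0.321 for CXCL1 and -1.84 ± 0.212 for CXCL8. CXCL3, LIF and IL11 differed by -1.47, -0.61 and -0.35, of which IL11 (edgeR adjusted p = 0.0397) and CXCL3 (0.0344) lost their call when any of several single libraries was left out. IL1B had a difference of -0.48 ± 0.18 (edgeR adjusted p = 0.0945). Batch and the other conditions of culture that changed with it cannot be told apart.

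The untreated level, the base of these ratios, was itself higher in batch 2. At 48 h, 6 members were higher and IL1B lower in untreated cells of batch 2, with 54.3% of all genes called in either direction. The call of IL1B was lost without untreated replicate 3 of batch 1 (log2 -0.33, edgeR adjusted p = 0.101) and in a single fit of all 54 libraries (0.317). CXCL8 had 25.6, 27 and 26.2 CPM in batch 1 against 82.8, 66.4 and 112 CPM in batch 2, a 3.29-fold difference (edgeR adjusted p = 1.52e-12). IL1A was 4.59-fold, CXCL1 2.45-fold, CXCL2 2.45-fold, CXCL3 2.19-fold and IL6 1.68-fold higher. Mean levels with CKI at 48 h in batches 1 and 2 were 17.6 and 5.91 CPM for IL6 and 7.35 and 3.62 CPM for CXCL2. They were 10.3 and 9.03 CPM for IL1A, 22.4 and 20.5 CPM for CXCL8, and 1.16 and 0.916 CPM for CXCL3. For CXCL1, LIF and IL11 they were 2.39 and 1.49, 81.9 and 58, and 78.2 and 69.3 CPM. These CKI levels were not tested between batches. Between 24 h and 48 h in batch 1, only CXCL8 was called in untreated cells, 2.63-fold higher at 48 h (9.92 ± 0.645 to 26.3 ± 0.715 CPM, edgeR adjusted p = 0.000948), where 1.57% of 15858 genes were called.

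In batch 1, the mixtures lacking the alkaloids raised IL1A and IL1B further than whole CKI did, and every mixture raised CXCL8. IL6 rose most with N-MacOmtOspc, and IL11 fell below the untreated level with the mixtures lacking the alkaloids at 48 h. With N-OmtOspc at 24 h, 3 of the 9 members tested were called higher, against 31.1% of all genes, and 2 lower, against 30.9%. N-MacOmtOspc raised 8 of 9, against 23.2% of all genes, and lowered none, against 21.8%. OmtOspc raised 4 of 9, against 9.03%, and MacOmtOspc raised 5 of 9, against 5.61%. Without untreated replicate 2, LIF and IL1A were no longer called with either of these mixtures, nor IL11 with MacOmtOspc, and other single libraries ended some of the same calls. Neither lowered any, with 7.72% and 4.84% of all genes called lower. At 48 h the mixtures raised more of the 10 members, with 8 for N-OmtOspc (38.3% of all genes), 9 for N-MacOmtOspc (35.8%), 8 for OmtOspc (29.1%) and 9 for MacOmtOspc (25.7%). With MacOmtOspc, CXCL1 lost its call in 4 of 18 fits that left out a single library (edgeR adjusted p up to 0.109). IL1B lost its call with MacOmtOspc in a single fit of all 54 libraries (edgeR adjusted p = 0.0632). The only member called lower at 48 h was IL11, with N-OmtOspc and N-MacOmtOspc, where 38.3% and 35.3% of all genes were called lower, beside 28.7% with OmtOspc and 25.5% with MacOmtOspc.

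**Figure D3:**
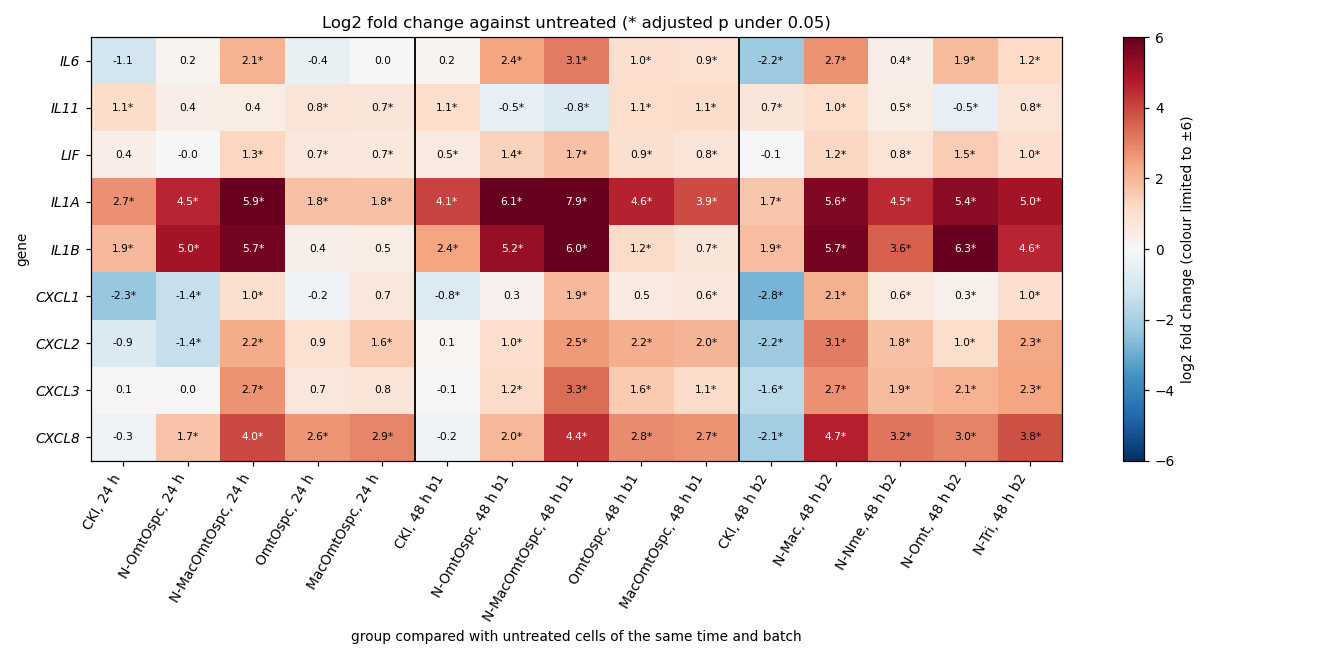
Log2 fold change against untreated cells of the same time and batch for 9 genes (rows) and 15 comparisons (columns), with colour limited to ±6 and asterisks at an edgeR adjusted p under 0.05 (b1 and b2, batches 1 and 2). IL1A reaches 7.88 with N-MacOmtOspc at 48 h, and IL11 is the only gene below 0 in that column, at -0.84.

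Among the 9 members other than CCL20, IL1A and IL1B had the largest rises with the mixtures lacking the alkaloids. At 48 h IL1A had 39.9, 44.6 and 43.2 CPM with N-OmtOspc and 139, 127 and 171 CPM with N-MacOmtOspc, against untreated values of 0.529 to 0.698 CPM. Every library of the fuller removal lay above every library of the lesser one. The rises over untreated cells were 69.1-fold and 235.5-fold (edgeR adjusted p = 3.36e-18 and 2.85e-20). IL1B had 131, 149 and 159 CPM with N-OmtOspc and 252, 234 and 278 CPM with N-MacOmtOspc at 48 h, 37.2-fold and 64.5-fold above untreated cells (edgeR adjusted p = 2.17e-20 and 3.21e-21). The removed compounds alone raised IL1A 24.4-fold with OmtOspc and 15.2-fold with MacOmtOspc (edgeR adjusted p = 1.08e-14 and 8.81e-13), and IL1B only 2.22-fold and 1.64-fold (edgeR adjusted p = 3.88e-08 and 6.17e-05).

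At 24 h the IL-1 genes were already raised with N-OmtOspc, where IL1B had 54.1, 50.2 and 93.7 CPM (31.6-fold, edgeR adjusted p = 4.36e-07). In N-MacOmtOspc at 24 h, replicate 2, another library that stood apart, held 41.9 CPM of IL1B beside 151 and 145 CPM in the other libraries, and 22.3 CPM of IL1A beside 56.7 and 58.2 CPM. Even that lowest library lay above all untreated libraries for both genes. With OmtOspc at 24 h IL1B had 4.29, 0.878 and 3.1 CPM and overlapped untreated cells (edgeR adjusted p = 0.681).

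CXCL8 rose with every mixture at both times. At 48 h it had 68.2, 121 and 129 CPM with N-OmtOspc, 604, 467 and 617 with N-MacOmtOspc, 186, 201 and 179 with OmtOspc and 180, 163 and 179 with MacOmtOspc, all above the untreated range of 25.6 to 27 CPM. The factors were 4.03, 21.3, 7.12 and 6.56 (edgeR adjusted p = 8.01e-11, 3.52e-16, 1.13e-12 and 4.27e-12). At 24 h the factors were 3.25, 15.6, 6.21 and 7.61 in the same order (edgeR adjusted p from 2.06e-08 to 5.53e-06). N-MacOmtOspc replicate 2, which stood apart, was the highest of its group at 24 h, with 212 CPM beside 132 and 121 CPM. The log2 value of N-MacOmtOspc at 24 h was 3.97, and between 3.67 and 4.12 when single libraries were left out. Thus CXCL8 rose with the removed alkaloids alone and with the mixtures lacking them.

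The other CXC chemokines separated the mixtures at 24 h. CXCL2 had 1.87, 1.01 and 4.05 CPM with N-OmtOspc, below the untreated 6.4, 5.87 and 6.46 CPM, and 26.9, 34.7 and 26.5 CPM with N-MacOmtOspc. The former was a 2.6-fold fall (edgeR adjusted p = 0.00315) and the latter a 4.72-fold rise (edgeR adjusted p = 4.42e-05). CXCL1 fell 2.59-fold with N-OmtOspc at 24 h (edgeR adjusted p = 0.00507) and rose 1.94-fold with N-MacOmtOspc (edgeR adjusted p = 0.0316), the latter call being lost without N-MacOmtOspc replicate 2 (log2 0.68, edgeR adjusted p = 0.123) and without any of 4 other single libraries. Without N-OmtOspc replicate 3, the falls of CXCL1 and CXCL2 with N-OmtOspc became larger, at -2.29 and -2.07 on the log2 scale. MacOmtOspc also raised CXCL2 at 24 h, 2.97-fold (edgeR adjusted p = 0.00426). At 48 h CXCL2 rose with all 4 mixtures, by 1.99-fold with N-OmtOspc, 5.78-fold with N-MacOmtOspc, 4.57-fold with OmtOspc and 4.07-fold with MacOmtOspc (edgeR adjusted p from 6.53e-08 to 0.00581). The value with N-MacOmtOspc was 2.53 on the log2 scale, and 2.91 without its replicate 2. CXCL3 rose by between 2.2-fold and 10.2-fold with the 4 mixtures at 48 h, and at 24 h only with N-MacOmtOspc (6.39-fold, edgeR adjusted p = 2e-04).

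IL6 rose most with the fullest removal. At 24 h N-MacOmtOspc libraries held 86.2, 87.6 and 84.3 CPM, close together and 4.21-fold above untreated cells (edgeR adjusted p = 0.00137). N-OmtOspc libraries held 14.9, 13.3 and 41.9 CPM, a spread that covered the untreated values (log2 0.22 ± 0.441, edgeR adjusted p = 0.69), and without replicate 3 the log2 fold change was -0.51. At 48 h IL6 had 69.1, 90.3 and 89.8 CPM with N-OmtOspc and 145, 95.5 and 175 CPM with N-MacOmtOspc, in which replicate 2 was the lowest. These were rises of 5.24-fold and 8.7-fold (edgeR adjusted p = 1.06e-11 and 1.53e-13), the latter 3.12 on the log2 scale and 3.32 without replicate 2, and OmtOspc and MacOmtOspc gave 1.98-fold and 1.87-fold (edgeR adjusted p = 2.8e-05 and 0.00011). LIF rose 2.44-fold with N-MacOmtOspc at 24 h (edgeR adjusted p = 3.44e-05). It also rose 1.6-fold with OmtOspc and 1.57-fold with MacOmtOspc at 24 h, calls that were lost when any of 3 and of 6 single libraries was left out, and between 1.7-fold and 3.34-fold with all 4 mixtures at 48 h.

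IL11 parted from the other members at 48 h, when it had 24.5, 26.3 and 28.4 CPM with N-OmtOspc and 20.5, 18.3 and 23.4 CPM with N-MacOmtOspc, below the untreated 33.4, 38.2 and 40 CPM. With OmtOspc it had 84.4, 79.8 and 72 CPM and with MacOmtOspc 76.5, 85.8 and 81.9 CPM, both overlapping the CKI libraries at 82.2, 77.6 and 74.7 CPM. The 2 falls were 1.41-fold and 1.8-fold (edgeR adjusted p = 3.95e-05 and 3.48e-08) and the 2 rises 2.1-fold and 2.17-fold (edgeR adjusted p = 5.55e-10 and 4.63e-10). The comparisons of OmtOspc and MacOmtOspc with CKI did not pass the test for IL11 (edgeR adjusted p = 0.985 and 0.689). At 24 h IL11 rose 1.71-fold with OmtOspc (edgeR adjusted p = 0.00867) and was not called with N-OmtOspc or N-MacOmtOspc (edgeR adjusted p = 0.0728 and 0.0559). Across the 18 group means, centred within each time and batch, the correlation of IL11 with the other 9 members lay between -0.4 and 0.0763, while those among the other members lay between 0.312 and 0.936. The groups of a time and batch share their centring, so the correlations are descriptions.

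Set against whole CKI at 24 h, N-OmtOspc raised 4 and lowered 1 of the 9 members tested, with 58.7% of all genes called. N-MacOmtOspc raised 8 and lowered 1 (35.7%), OmtOspc raised 3 (8.49%) and MacOmtOspc raised 3 (11.6%). At 48 h the members called higher and lower than in CKI were 9 and 1 for N-OmtOspc (73.1%), 9 and 1 for N-MacOmtOspc (67.2%), 8 and 1 for OmtOspc (51.8%) and 7 and 1 for MacOmtOspc (47.6%). IL11 was the member called lower with the 2 removal mixtures and IL1B the member called lower with the 2 mixtures of removed compounds. IL1B was 7.27-fold and 12.6-fold higher than in CKI with N-OmtOspc and N-MacOmtOspc, and 2.3-fold and 3.11-fold lower with OmtOspc and MacOmtOspc. In the N-OmtOspc comparison with CKI at 24 h, the call of IL6 (log2 1.30, edgeR adjusted p = 0.0216) was lost without N-OmtOspc replicate 3 (0.58, edgeR adjusted p = 0.255). At 48 h, CCL20 with MacOmtOspc lost its call against CKI in 5 of 18 fits that left out a single library. LIF with MacOmtOspc (log2 0.24) lost it in several. CCL20 with OmtOspc lost it without OmtOspc replicate 1 (edgeR adjusted p = 0.0674), and CXCL2 with N-OmtOspc without N-OmtOspc replicate 3 (0.063).

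Macrozamin was the compound that differed in a pair of comparisons. When it was removed in addition to the alkaloids (N-MacOmtOspc against N-OmtOspc), 7 of the 9 members tested at 24 h were higher, with 47.6% of all genes called, and at 48 h 9 of 10 were higher and IL11 lower, with 51% called. The median over the 9 members other than CCL20 was 1.86 at 24 h and 1.54 at 48 h on the log2 scale, beside 0.015 and -0.012 over all genes. CXCL2 at 24 h had the largest step of these 9, 12.3-fold (log2 3.62, edgeR adjusted p = 9.3e-07), and without N-OmtOspc replicate 3 its log2 value was 4.31. The same library moved the 24 h steps of IL6, CXCL1 and CXCL3 from 1.86, 2.33 and 2.66 to 2.59, 3.24 and 3.65 on the log2 scale. CXCL8 was 4.8-fold and 5.29-fold higher at 24 h and 48 h. At 48 h the N-OmtOspc and N-MacOmtOspc libraries of CXCL2 overlapped through N-MacOmtOspc replicate 2, at 14.5 CPM beside 48 and 53.2 CPM.

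When macrozamin was instead added to the alkaloids alone (MacOmtOspc against OmtOspc), no member was called at 24 h, where edgeR called 0 of 15191 genes (0%), with 566 at an unadjusted p under 0.05, and DESeq2 also called 0. With the 3 libraries that stood apart left out, 3 genes were called. CXCL1 had 8.72, 7.52 and 6.51 CPM with MacOmtOspc and 3.51, 5.4 and 3.14 CPM with OmtOspc (edgeR adjusted p = 0.775), so the groups did not overlap although the test was not passed. At 48 h, IL1A was 1.61-fold lower with MacOmtOspc (11.2, 8.57 and 8.49 CPM against 15, 13.9 and 16.6 CPM, edgeR adjusted p = 0.0029) and IL1B 1.35-fold lower (edgeR adjusted p = 0.0443), with 1.98% of all genes called. The call of IL1B was lost in 11 of the 18 fits that left out a single library. In a single fit of all 54 libraries neither gene was called (edgeR adjusted p = 0.37 for IL1A and 0.9 for IL1B).

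The mixtures acted differently at 48 h than at 24 h for some members. The change of the effect was called for 6 members with N-OmtOspc (34.2% of 15858 genes), 2 with N-MacOmtOspc (7.35%), 1 with OmtOspc (8.06%), 1 with MacOmtOspc (2.59%) and none with CKI (0.391%). With N-OmtOspc the effect rose by 2.2 ± 0.487 for IL6, 2.38 ± 0.503 for CXCL2, 1.66 ± 0.453 for CXCL1, 1.59 ± 0.584 for IL1A and 1.45 ± 0.204 for LIF on the log2 scale, and fell by 0.86 for IL11. Without N-OmtOspc replicate 3 at 24 h, the differences of IL6, CXCL1, CXCL2 and LIF were 2.92, 2.58, 3.07 and 1.83. IL1A also rose between the times with N-MacOmtOspc (1.96), OmtOspc (2.88) and MacOmtOspc (2.16), of which the last (edgeR adjusted p = 0.0487) was lost in 26 of 36 fits that left out a single library. The changes of IL1A with N-OmtOspc and N-MacOmtOspc (edgeR adjusted p = 0.0345 and 0.0349) were lost in 7 and 6 of those 36 fits. The change of IL1B was not called with any of the 4 mixtures, with edgeR adjusted p from 0.44 to 0.864.

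Among all groups, the single removal N-Mac in batch 2 had the largest mean CPM of every chemokine among the members. By mean CPM, N-Omt lay below N-MacOmtOspc of batch 1 at 48 h for CXCL1, CXCL2 and CXCL3. The libraries of these groups overlapped for each of these genes, and the comparison across batches was not tested. The untreated levels of CXCL1, CXCL2, CXCL3 and CXCL8 were themselves higher in batch 2 than in batch 1. Each of N-Mac, N-Nme and N-Tri raised all 10 members over untreated cells, with 36.9%, 35.9% and 34.8% of 15115 genes called higher and 35.4%, 35.4% and 37.4% called lower. N-Omt raised 9, against 38.4% of all genes, and lowered IL11, against 39.9%. Set against CKI, N-Mac raised all 10 (69.4% of all genes called in either direction), N-Nme raised 9 and lowered IL11 (71.5%), N-Omt raised 9 and lowered IL11 (76.3%), and N-Tri raised 9 (71.4%), IL11 being the exception with a log2 difference of 0.037 ± 0.0616 (edgeR adjusted p = 0.605). The median over the 9 members other than CCL20 was 4.32 for N-Mac, 2.82 for N-Nme, 3.67 for N-Omt and 3.37 for N-Tri on the log2 scale, where all genes had medians between -0.017 and 0.017.

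CXCL8 showed the widest range. Against 19.8, 22.1 and 19.5 CPM with CKI and 82.8, 66.4 and 112 CPM in untreated cells, N-Mac had 2144, 2262 and 2165 CPM, N-Tri 1168, 1213 and 1367, N-Nme 762, 850 and 842, and N-Omt 656, 703 and 679 CPM. No library overlapped a library of another group. The factors over CKI were 107.4, 59.4, 39.2 and 32.9 in this order, with edgeR adjusted p between 8.44e-29 and 2.28e-26.

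**Figure D4:**
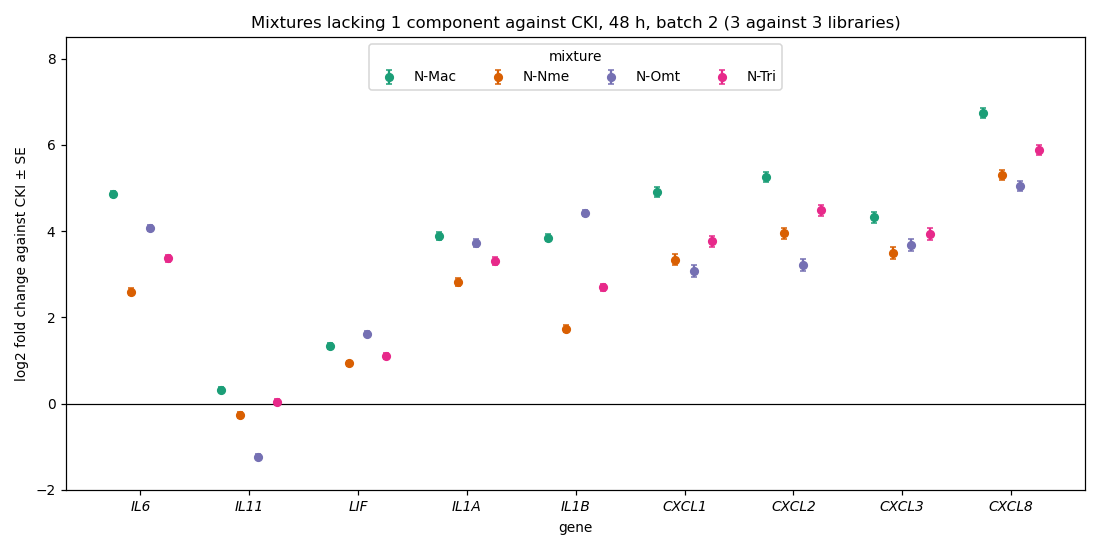
Log2 fold change of 9 genes in the 4 mixtures lacking a single component against CKI at 48 h in batch 2, with bars of 1 SE (3 against 3 libraries). CXCL8 lies highest, from 5.04 with N-Omt to 6.75 with N-Mac, and IL11 lies between -1.23 and 0.32.

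In batch 2, CXCL1 and CXCL2 had the order N-Mac, N-Tri, N-Nme, N-Omt, untreated and CKI, as CXCL8 had, with no overlap between any neighbours. For CXCL2 the libraries ran from 133 to 146 CPM with N-Mac and from 33.4 to 34.6 CPM with N-Omt, and for CXCL1 from 42.2 to 47.5 CPM and from 12.8 to 12.9 CPM. CXCL3 kept N-Mac and N-Tri first, at 18.3 ± 0.942 and 14.4 ± 0.755 CPM, but its N-Omt and N-Nme libraries overlapped.

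IL6 and IL1A instead followed the order N-Mac, N-Omt, N-Tri, N-Nme, untreated and CKI or, for IL1A, CKI and untreated. IL6 had 169, 174 and 168 CPM with N-Mac, 102, 102 and 95.7 with N-Omt, 59.9, 61.4 and 66.4 with N-Tri and 37.5, 38 and 34 with N-Nme, with no overlap between neighbours. The factors over CKI were 28.9, 16.8, 10.3 and 6.06 (edgeR adjusted p from 3.02e-31 to 2.54e-23), and over untreated cells 6.39, 3.71, 2.28 and 1.34 (edgeR adjusted p from 2.72e-27 to 2.87e-07). IL1A had 128, 135 and 135 CPM with N-Mac and 118, 124 and 118 with N-Omt, 14.7-fold and 13.2-fold above CKI.

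IL1B and LIF were highest with N-Omt. IL1B had 232, 226 and 222 CPM there, 153, 157 and 143 with N-Mac, 67.9, 66.1 and 75.8 with N-Tri and 36, 40.4 and 30.9 with N-Nme, against 11, 10.1 and 10.5 with CKI. The factors over CKI were 21.4, 14.4, 6.47 and 3.33 (edgeR adjusted p from 1.1e-28 to 8.66e-18). LIF had 180 ± 8.64 CPM with N-Omt, 145 ± 13.3 with N-Mac, 128 ± 5.12 with N-Tri and 113 ± 5.5 with N-Nme, between 1.91-fold and 3.08-fold above CKI at 58 ± 1.29 CPM. The libraries of LIF overlapped between N-Mac and N-Tri and between untreated cells and CKI.

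IL11 was again lowest in the mixture lacking oxymatrine. It had 28.4, 30.4 and 30.3 CPM with N-Omt, below the untreated 40.9, 39.9 and 46.2 CPM (1.43-fold, edgeR adjusted p = 4.68e-08), and 2.35-fold below CKI at 73.5, 64.5 and 70 CPM (edgeR adjusted p = 4.43e-17). N-Mac had 80.4, 93.9 and 84.4 CPM, 1.25-fold above CKI (edgeR adjusted p = 2.21e-05), and N-Nme 58.6, 54.5 and 62.9 CPM, 1.2-fold below it (edgeR adjusted p = 0.000374). In both batches, then, the 3 groups lacking oxymatrine at 48 h, N-OmtOspc, N-MacOmtOspc and N-Omt, had IL11 below untreated cells, and the other treated groups had it above.

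CCL20, the ligand of CCR6, was near the limit of detection and is given as counts. At 24 h the 3 untreated and 3 CKI libraries held 0 counts. N-OmtOspc libraries held 1, 3 and 5 counts and N-MacOmtOspc libraries 6, 5 and 9. Relative to the reads of each group, their sums were 3.14 and 6.24 times an assumed floor of 3 counts in the untreated group. These ratios leave out the counting error of so few reads, and CCL20 was not tested at 24 h. At 48 h in batch 1 N-MacOmtOspc held 57, 35 and 34 counts and N-OmtOspc 6, 11 and 4, where untreated cells held 1, 0 and 0 and CKI none. In batch 2 N-Mac held 152, 143 and 160 counts, N-Omt 59, 67 and 51, N-Tri 29, 47 and 58 and N-Nme 28, 15 and 19, against 0, 4 and 5 in untreated cells and 0, 1 and 1 with CKI. All 12 libraries of these 4 groups lay above all 6 of the others, and each of the 4 groups was called higher than untreated cells (edgeR adjusted p from 7.48e-17 to 4.56e-06). In batch 1 at 48 h the calls against CKI included MacOmtOspc, whose 3, 0 and 5 counts overlapped the CKI libraries. Its order, N-Mac, N-Omt, N-Tri and N-Nme by mean CPM, was that of IL6, with N-Omt and N-Tri overlapping.

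The pathway around these ligands was read from 7 lists of genes. The shares of all genes called higher and lower with CKI, beside which the counts of each list stand, were 15.3% and 14.8% at 24 h, 27% and 27% at 48 h in batch 1, and 32.3% and 34.2% in batch 2. Of the receptors, 4 of 9 tested were higher and none lower at 24 h, and at 48 h 4 of 9 and 6 of 8 were higher with 0 and 1 lower. IL6R, the IL6-binding receptor chain, rose by 1.60 ± 0.34 at 24 h, 1.97 at 48 h in batch 1 and 1.82 in batch 2 on the log2 scale, and was higher in all 12 groups of mixtures as well, up to 4.87 with N-OmtOspc at 48 h. IL1R1, the IL-1 receptor, rose by 0.56, 0.53 and 1.06 with CKI. Its call at 24 h was lost without CKI replicate 1 or 2 (edgeR adjusted p = 0.085 and 0.0516) and without untreated replicate 1 or 3 (0.112 and 0.0685).

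The JAK-STAT3 list was divided. Of 12 genes, 3 were higher and 3 lower with CKI at 24 h, and 5 higher with 5 and 4 lower at 48 h in batches 1 and 2. Over all genes, 15.3%, 27% and 32.3% were called higher and 14.8%, 27% and 34.2% lower. PIM1, a kinase gene induced by STAT3, rose by 0.71, 1.1 and 1.46 with CKI, and by 2.33 with N-Omt. PIAS3, an inhibitor of STAT3, rose by 0.34, 0.49 and 0.59, and its call at 24 h was lost when any of 3 single libraries was left out (edgeR adjusted p up to 0.0958) and with no filter beyond 1 count (0.0569). SOCS2 and CISH, which dampen cytokine receptors, fell with CKI, by 1.34, 1.40 and 1.82 for SOCS2 and by 1.01, 1.2 and 0.89 for CISH, whose call at 24 h was lost without CKI replicate 2 or untreated replicate 1 (edgeR adjusted p = 0.08 and 0.076). With N-OmtOspc at 48 h SOCS2 and CISH were higher than in untreated cells, by 0.50 and 1.56.

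On the NF-kappaB list of 24 genes, CKI raised 6 and lowered 1 at 24 h, raised 15 and lowered 3 at 48 h in batch 1, and raised 9 and lowered 6 in batch 2. The shares of all genes called higher were 15.3%, 27% and 32.3%, and those called lower 14.8%, 27% and 34.2%. The single removals each raised 15 of the 24, with between 34.8% and 38.4% of all genes called higher. BIRC3, an inhibitor of apoptosis induced by NF-kappaB, rose by 1.2, 1.46 and 0.79 with CKI and was not called with N-Omt. NFKB2 rose by 0.67, 0.66 and 0.62, the first being lost without untreated replicate 2 (edgeR adjusted p = 0.0526), and IRAK3, which dampens IL-1 signalling, fell by 1.23, 1.63 and 0.94. Of 11 C/EBP and AP-1 factors, CKI raised 4 at 24 h, 8 at 48 h in batch 1 and 6 in batch 2, against 15.3%, 27% and 32.3% of all genes. N-OmtOspc raised 9 at 24 h and 10 at 48 h, against 31.1% and 38.3%. FOSB rose by 2.33 and JUN by 0.68 with CKI at 24 h, but by only 0.38 and 0.28 without CKI replicate 1 (edgeR adjusted p = 0.726 and 0.196). The 24 h call of FOSB was lost in 8 of 18 fits that left out a single library. That of JUN was also lost without any single untreated library (edgeR adjusted p up to 0.0742). At 48 h FOSB rose by 1.23 and 1.26 and JUN by 0.66 and 0.58 in batches 1 and 2. Both FOSB calls at 48 h were lost in a single fit of all 54 libraries (edgeR adjusted p = 0.0805 and 0.0511).

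**Figure D5:**
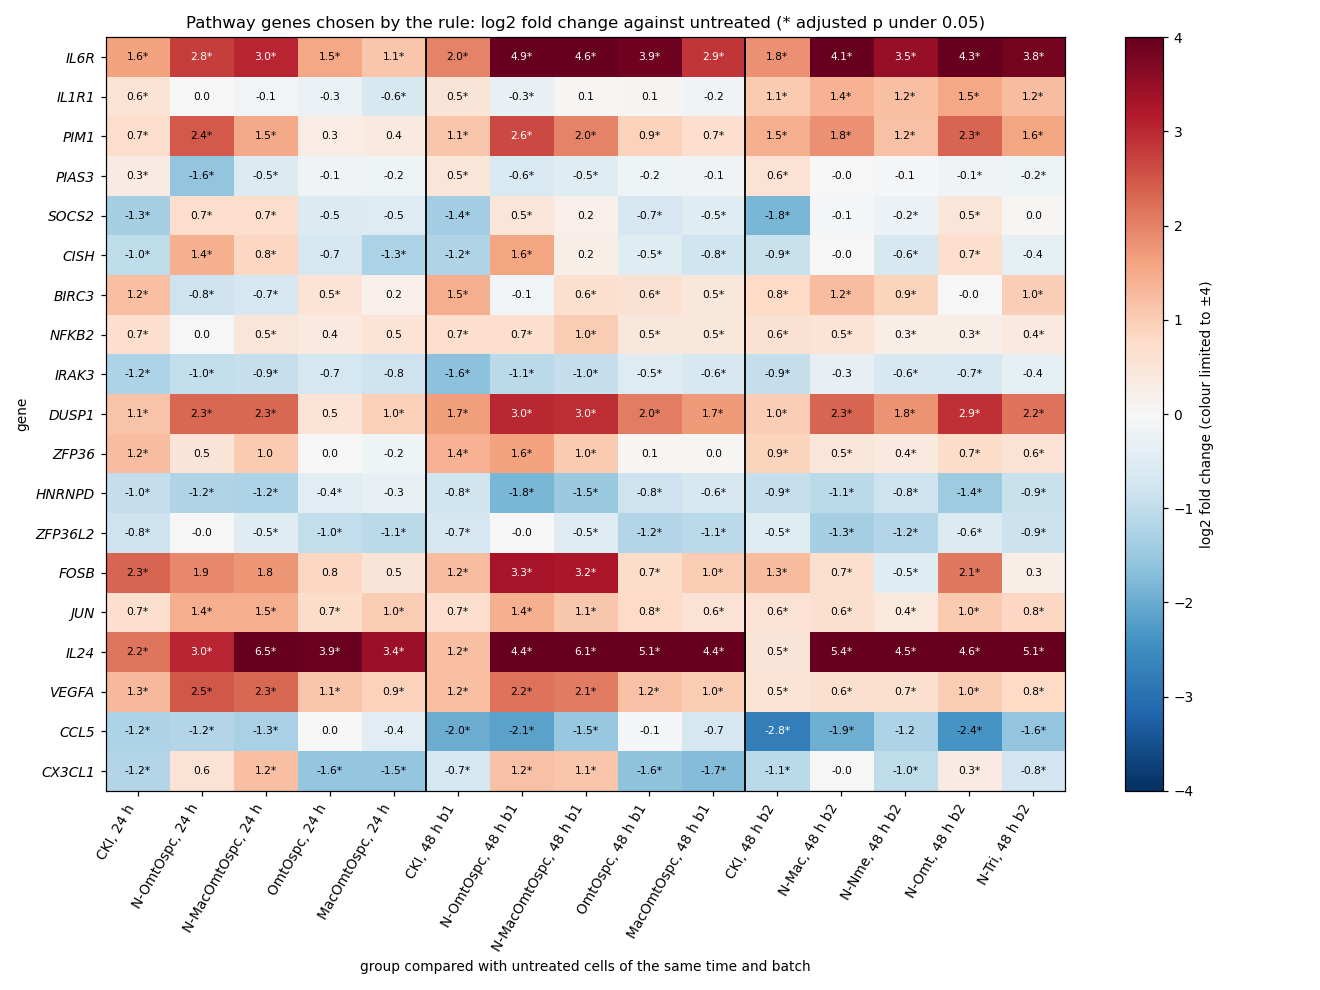
Log2 fold change against untreated cells for 19 pathway genes named by rule (rows) in 15 comparisons (columns), with colour limited to ±4 and asterisks at an edgeR adjusted p under 0.05 (b1 and b2, batches 1 and 2). IL6R and IL24 are positive in every column, and HNRNPD is called lower in 14 of the 15.

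Genes of AU-rich mRNA decay were called in both directions, with 2 of 14 higher and 4 lower with CKI at 24 h, 5 and 6 at 48 h in batch 1 and 4 and 8 in batch 2. Of all genes, 15.3%, 27% and 32.3% were called higher and 14.8%, 27% and 34.2% lower, so the share higher at 24 h was near that of all genes. DUSP1, a phosphatase that restrains p38 signalling, rose by 1.14, 1.66 and 0.98 with CKI and by 2.91 with N-Omt, and the first value was 0.46, still called, without CKI replicate 1. ZFP36, which promotes decay of cytokine mRNAs, rose by 1.23 at 24 h (0.28 without CKI replicate 1, edgeR adjusted p = 0.583), 1.38 and 0.89. The 24 h call of ZFP36 was also lost without any single untreated library (edgeR adjusted p up to 0.114) and without some libraries of other groups. HNRNPD and ZFP36L2, which bind the same elements, fell by 0.95, 0.81 and 0.92 and by 0.83, 0.66 and 0.47. On the list of IL-1 processing, 1, 5 and 6 of 7 genes were lower and 0, 1 and 0 higher in the 3 comparisons, with no gene called in the same direction in all 3.

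Of 28 other secreted cytokines, 18 were tested, and CKI raised 3, 8 and 7 of them and lowered 3, 3 and 9. Over all genes, 15.3%, 27% and 32.3% were called higher and 14.8%, 27% and 34.2% lower, so the counts at 24 h were near these shares. IL24, a member of the IL-10 family, rose by 2.15, 1.22 and 0.51 with CKI, by 6.09 with N-MacOmtOspc at 48 h and by 5.36 with N-Mac. Its value with CKI was 1.45 at 24 h without CKI replicate 1, and 0.81 in batch 2 without untreated replicate 3, and the batch 2 call was lost in a single fit of all 54 libraries (edgeR adjusted p = 0.072). VEGFA, the vascular growth factor, rose by 1.28, 1.21 and 0.55 with CKI. The chemokines CCL5 and CX3CL1 fell with CKI, by 1.23, 1.99 and 2.76 and by 1.19, 0.69 and 1.08. The call of CCL5 at 24 h was lost without CKI replicate 1, CKI replicate 2 or untreated replicate 1 (edgeR adjusted p = 0.0541, 0.0632 and 0.058). It was also lost in a single fit of all 54 libraries (0.0607), with no filter beyond 1 count (0.0629) and with DESeq2 (DESeq2 adjusted p = 0.0675). With N-Mac, which raised all 10 members, CCL5 was lower than in untreated cells by 1.94 and CX3CL1 was not called.

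The genes most like each member were sought among 11041 genes by the correlation of 18 group means, centred within each time and batch. IL6 was most like DNER (r = 0.949) and NFKBIZ (0.948), and CXCL1 was most like NFKBIZ (0.935). IL1A was most like IER3 (0.969) and DUSP1 (0.968), IL1B like TNFSF15 (0.969), CXCL8 like ATP6V0D2 (0.961), CXCL3 like P2RX4 (0.968), CXCL2 like UBE2E2 (0.94), LIF like STPG1 (0.963) and CCL20 like NR3C2 (0.947). IL11 was most like HSPA4L (0.901). Groups of a time and batch share their centring, so these values are descriptions.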

How the data were processed

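RNA-seq was performed on 54 libraries of MDA-MB-231 cells. The deposited values are raw counts of reads per gene, which per the submitters' processing notes were made with FastQC 0.11.4, Trim Galore 0.3.7, STAR 2.5.3a, Subread 1.5.2 (featureCounts) and the hg19 genome; edgeR 3.22.3 is also named. How the counting treated strand and reads that match several places is not given in the sources used here. Here, edgeR 4.0.16 (R 4.3.3) with TMM scaling, its filterByExpr filter and the quasi-likelihood test was fitted to the 18 libraries of each time and batch (15191 genes at 24 h, 15513 and 15115 at 48 h in batches 1 and 2), and to 36 libraries for differences between times or batches. P-values were adjusted by the Benjamini-Hochberg method over all genes tested, with calls at 0.05. The SE is the log2 fold change divided by the square root of its F value. Code was tested on simulated data. All 27978 genes include 3798 without counts.

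The 10 members, the pathway lists and the tests were chosen with earlier results of these data known. Named pathway genes were, per list, up to 2 with the largest mean rise and 2 with the largest mean fall among those called the same way in all 3 comparisons of CKI with untreated cells. The genes most like a member were the 3 with the highest correlation, of which the first or the first pair are named. Alternatives were DESeq2 1.42.0, RLE factors, library sizes alone, no filter beyond 1 count, a 2-fold minimum, a replicate block, a single fit of all 54 libraries, fits of each pair alone, the fit without the 3 libraries that stood apart, and leaving out each library in turn. Correlations of the deviations of same-numbered libraries ran from -0.563 to 0.544, with means between -0.00624 and 0.0112 per number, time and batch, so no pairing was used.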

Additional observations from a re-analysis of the deposited data

Results flagged for a closer look

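For 18 values, the effect of a treatment differed between times or batches by a test of the difference itself (edgeR, 36 libraries, log2 scale). Of these, 8 belong to whole CKI at 48 h, whose effect in batch 2 minus that in batch 1 was -2.327 for IL6, -0.347 for IL11, -0.6059 for LIF, -2.379 for IL1A, -1.955 for CXCL1, -2.309 for CXCL2, -1.469 for CXCL3 and -1.841 for CXCL8. All 8 were negative, also for IL1A and IL11, which rose in both batches. IL11 missed the threshold without CKI replicate 2 of batch 2 (-0.29, edgeR adjusted p = 0.139) and with RLE factors (edgeR adjusted p = 0.0559).

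With N-OmtOspc, the effect at 48 h minus that at 24 h was 2.197 for IL6, -0.8608 for IL11, 1.447 for LIF, 1.59 for IL1A, 1.662 for CXCL1 and 2.382 for CXCL2. IL6, CXCL1 and CXCL2 had their highest value of the group at 24 h in replicate 3, and their differences were larger without it. The IL11 difference had an edgeR adjusted p of 0.0517 when libraries were scaled by their sizes alone. With N-MacOmtOspc the difference was -1.278 for IL11 and 1.956 for IL1A, with OmtOspc 2.879 for IL1A, and with MacOmtOspc 2.164 for IL1A. The cause of these differences was not tested.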

How the results depend on the processing

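Of 313 called member and pathway values, none changed sign in 8684 alternatives, and 269 alternatives lost the call, of which 75 required a 2-fold change, 159 left out a library and 35 were other settings. The sign could not change under the 2-fold minimum, which kept the same log2 fold change. Most libraries left out belonged to groups outside the comparison and could move its value only slightly. The number of alternatives therefore overstates how far the signs were tested. In all, 29 values lost the call when some single library was left out. Among 123 member values that were not called, 34 changed sign somewhere. Those printed are IL6 with N-OmtOspc at 24 h, at -0.0603 with library sizes alone and between -0.51 and 0.50 when libraries were left out, and IL11 in N-Tri against CKI, between -0.012 and 0.078 when libraries were left out.

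The count of members called with CKI at 24 h rose from 4 to 7 without the 3 libraries that stood apart and in a single fit of all 54 libraries, and ranged from 4 to 7 when libraries were left out. At 48 h in batch 1 it fell from 5 to 3 with a 2-fold minimum. The 10 changes between times became 16 without the 3 libraries and 16 when each pair was fitted alone, with 7 to 14 when libraries were left out. The 8 differences between batches became 5 in the fit of all 54 libraries. Untreated cells at 48 h against 24 h had 1 call, 2 without the 3 libraries and 3 in fits of the pair alone. Pathway genes called with CKI went from 34 to 16 with a 2-fold minimum and 52 in the fit of all 54 libraries at 24 h (23 to 40 when libraries were left out), and with a 2-fold minimum from 70 to 16 and from 72 to 14 at 48 h in batches 1 and 2.

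With a replicate block, the counts were 4, 5 and 8 for CKI against untreated cells, 22, 36 and 40 for the mixtures against untreated cells, 39 for the single removals against CKI, 30 (27 without the block) and 49 for the mixture steps at 24 h and 48 h, 10 and 8 for the changes between times and batches, 1 and 8 for untreated cells between times and batches, and 34, 71 and 72 for pathway genes. The block ended the calls of ZFP36 and FOSB with CKI at 24 h (edgeR adjusted p = 0.0766 each), and the numbers did not pair the libraries.

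With library sizes alone, the share of called genes that were higher with N-OmtOspc against untreated cells at 24 h went from 50.17% to 34.4%, with a shift of the median gene by -0.305 on the log2 scale. Against CKI at 24 h it went from 49.71% to 29.3% with N-OmtOspc and from 51.96% to 40.25% with MacOmtOspc, and for N-MacOmtOspc against N-OmtOspc from 49.94% to 74.45% at 24 h and from 50.76% to 34.51% at 48 h. At 48 h it went from 50.38% to 61.46% with OmtOspc and from 50.24% to 60.47% with MacOmtOspc against untreated cells, and from 49.26% to 39.22% for N-MacOmtOspc against CKI. For the changes between times it went from 45.16% to 62.22% with CKI, 45.26% to 78.74% with N-OmtOspc, 31.99% to 18.29% with N-MacOmtOspc, 40.06% to 51.83% with OmtOspc and 39.27% to 55.1% with MacOmtOspc. Precision was lowest at 24 h, with a biological coefficient of variation of 0.175 against 0.0763 and 0.048 at 48 h in batches 1 and 2, and for CCL20, with at most 160 counts in a library.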
